A study of Mus musculus with 6 samples.

Results

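The acute phase serum amyloids and orosomucoids are blood proteins that hepatocytes, the parenchymal cells of the liver, make in greater or smaller amounts when inflammation signals reach the liver. The genes described here were chosen by symbol: Saa1, Saa2, Saa3, Saa4, Orm1, Orm2, Orm3, Lcn2, Apcs and Crp, which are 10 of the 25718 genes in the table. Primary hepatocytes from alcohol-fed WT mice (3 libraries) were compared with those from alcohol-fed S100a16KO+/- mice (3 libraries) by poly(A) RNA sequencing. S100A16 is a calcium-binding protein of the S100 family. The sample labels name the second genotype a knockdown, and the methods of the study describe a heterozygous knockout, in which a floxed S100a16 allele was removed by Cre recombinase under the EIIa promoter, which acts throughout the early embryo and not in hepatocytes alone. The background was C57BL/6, and homozygous loss was lethal. Mice were male and 8 to 10 weeks old. Both genotypes received control liquid diet for 5 days, then a 5% ethanol diet for 10 days and 1 ethanol gavage (5 g/kg), and cells were collected 9 h afterwards. No library of mice on control diet is compared here, so the values describe the genotype under alcohol only.

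In the acute phase response, interleukin-6 acts through its receptor, the shared subunit gp130 and the transcription factor STAT3, while interleukin-1 acts through NF-kB and the C/EBP factors, and together they raise transcription of secreted proteins in hepatocytes. Serum amyloid A proteins travel on high-density lipoprotein. Orosomucoids, also called acid glycoproteins, carry small lipophilic ligands, lipocalin 2 takes up iron-loaded bacterial siderophores, and the pentraxins, serum amyloid P component and C-reactive protein, bind damaged cells and bacteria. In the mouse, serum amyloid P component rather than C-reactive protein is the pentraxin that responds strongly to inflammation.

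The study's aim was to find how S100A16 acts on fatty liver injury caused by alcohol. It reported lower Il6, Tnfa and Il1b mRNA in livers of alcohol-fed S100a16KO+/- mice than in those of WT mice. The genes described here give the mRNA of secreted inflammation proteins in isolated hepatocytes, and no protein level is part of these data. At an adjusted p under 0.05, edgeR called 11.6% of all tested genes upregulated and 11.2% downregulated. Of the 10 genes, 7 were upregulated in S100a16KO+/- hepatocytes, Saa4 was downregulated, and Saa2 and Crp did not pass the test. The largest difference was that of Lcn2, at 3.19 times the WT level. Orm1, the most abundant of them, was 1.51 times as high, and Crp lay at 95.5% of WT.

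The serum amyloid genes lie together on chromosome 7 and the orosomucoid genes together on chromosome 4 (GRCm38), and the members of each cluster resemble each other in sequence. This bears on how reads were divided between them. The coding sequences of Saa1 and Saa2 were 95.1% identical, with 18 differences over 369 bases. Saa1 shared 76.1% of aligned bases with Saa3 and 65.2% with Saa4. Orm1 was 89.9% identical to Orm2 and 86.1% to Orm3, and Apcs was 59.0% identical to Crp. No stretch of 150 bases, the length of 1 read, was the same in the coding transcripts of any of these pairs. Bases 1 to 240 of the Saa1 and Saa2 coding sequences are given because this pair is the closest. They were read from the GENCODE M21 transcripts ENSMUST00000128088 and ENSMUST00000210769, and capitals mark the 13 bases that differ.
Saa1 coding sequence: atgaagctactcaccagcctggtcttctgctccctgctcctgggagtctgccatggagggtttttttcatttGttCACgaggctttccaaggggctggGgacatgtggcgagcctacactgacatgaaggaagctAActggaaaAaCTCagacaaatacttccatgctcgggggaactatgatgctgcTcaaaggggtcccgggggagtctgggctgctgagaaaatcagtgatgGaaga
Saa2 coding sequence: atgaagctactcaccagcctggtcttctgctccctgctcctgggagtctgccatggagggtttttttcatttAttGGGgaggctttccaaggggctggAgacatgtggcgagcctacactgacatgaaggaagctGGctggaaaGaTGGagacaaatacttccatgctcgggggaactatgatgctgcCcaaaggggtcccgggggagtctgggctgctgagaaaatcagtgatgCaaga

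The sequences just upstream of the transcription start are given for 3 upregulated genes with a C/EBP motif (Saa1, Orm2 and Orm3), for Saa4 and for Apcs, so that genes that rose can be set beside the gene that fell. They come from RefSeq on GRCm38.p6, where 9 of the 10 genes matched (Orm1 did not). The motifs searched on both strands were TTGCNNAA for C/EBP, TTCNNNGAA for STAT, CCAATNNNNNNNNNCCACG for the ER stress element, and the kappaB motif. Capitals mark a match to the C/EBP motif in Saa1, Orm2, Orm3 and Saa4 and to the STAT motif in Apcs. The Saa1 sequence is chr7:46742981-46743230 (minus strand), that of Orm2 chr4:63362199-63362448 (plus), that of Orm3 chr4:63355908-63356157 (plus), that of Saa4 chr7:46732604-46732853 (minus) and that of Apcs chr1:172895055-172895304 (minus).
Saa1 promoter: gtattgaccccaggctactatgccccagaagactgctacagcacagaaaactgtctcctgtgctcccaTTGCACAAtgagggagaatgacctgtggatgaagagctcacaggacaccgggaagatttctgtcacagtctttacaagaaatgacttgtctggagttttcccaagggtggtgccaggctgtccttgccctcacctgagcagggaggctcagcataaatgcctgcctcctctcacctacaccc
Orm2 promoter: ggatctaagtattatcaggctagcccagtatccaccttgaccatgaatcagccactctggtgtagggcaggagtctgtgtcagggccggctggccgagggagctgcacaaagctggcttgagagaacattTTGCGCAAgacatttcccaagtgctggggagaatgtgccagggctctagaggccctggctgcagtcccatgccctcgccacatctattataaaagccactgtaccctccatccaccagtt
Orm3 promoter: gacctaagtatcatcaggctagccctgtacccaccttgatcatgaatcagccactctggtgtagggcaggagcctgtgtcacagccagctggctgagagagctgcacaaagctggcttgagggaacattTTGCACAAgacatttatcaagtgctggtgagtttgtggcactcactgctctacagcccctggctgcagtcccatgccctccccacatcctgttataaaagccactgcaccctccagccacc
Saa4 promoter: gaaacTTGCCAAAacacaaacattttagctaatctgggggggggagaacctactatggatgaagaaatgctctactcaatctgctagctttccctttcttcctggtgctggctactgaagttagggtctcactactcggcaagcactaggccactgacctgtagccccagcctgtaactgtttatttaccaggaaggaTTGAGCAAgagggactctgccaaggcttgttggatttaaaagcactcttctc
Apcs promoter: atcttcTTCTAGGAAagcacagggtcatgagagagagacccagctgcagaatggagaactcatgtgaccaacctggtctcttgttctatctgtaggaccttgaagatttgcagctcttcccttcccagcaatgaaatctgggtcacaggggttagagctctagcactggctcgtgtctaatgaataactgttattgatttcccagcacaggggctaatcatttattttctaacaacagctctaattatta

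A C/EBP match was found in 7 of the 9 promoters, against 9.56% of the 32851 RefSeq promoters of the same length. The windows of Saa1 and Saa2 resemble each other, as do those of Orm2 and Orm3, so the 7 are not independent. In annotated exons lay 197 bases of the Lcn2 window, 43 of the Saa2 window and 24 of the Saa3 window. Counted from the start, the matches began at position -182 in Saa1 (TTGCACAA), at -120 in Orm2 (TTGCGCAA) and at -121 in Orm3 (TTGCACAA). Saa2, Saa3 and Lcn2 also held a match, and Saa4, which was lower in S100a16KO+/- hepatocytes, held 2. The STAT motif occurred in Apcs alone of the 9, against 7.02% of all promoters. The kappaB motif (7.25% of all promoters) and the ER stress element (0.113%) had no match in these windows. A match of letters is a description of the sequence and not a binding site.

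S100a16 had 1001, 1056 and 1107 counts in WT replicates 1, 2 and 3 and 433, 390 and 366 in the S100a16KO+/- replicates, a log2 fold change of -1.40 ± 0.11 (SE), or 38.0% of WT (adjusted p = 4.14e-07, edgeR's quasi-likelihood test, two-sided, Benjamini-Hochberg adjustment over all 15957 tested genes). The estimated counts of a library summed to between 67658095 and 71807834. About 4 counts stood for 1 fragment, and a count of 0 allowed up to 3 fragments, or 12 counts, for counting error only. All 10 genes were above this in every library. WT replicate 1 and S100a16KO+/- replicate 2 stood apart from the other 4 libraries on the second principal component (12.8% of the variance). Mitochondrial transcripts took 17.0% to 21.1% of the counts. The labels do not say whether the libraries came from separate mice, so p-values measure the spread between these 3 libraries a group, which may be technical. In bulk RNA, fewer cells of a type and less RNA per cell cannot be told apart.

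All 10 genes passed the filter on low counts. Of them, 8 had an adjusted p under 0.05, where 22.8% of all tested genes did. The 10 genes were chosen with earlier results of these data known, so the counts of calls are a description only. The test called 7 higher, where it called 11.6% of all tested genes higher, and 1 lower, where it called 11.2% lower. The criterion of the study asks for 2-fold or more with p under 0.05 before adjustment. With edgeR's p-values it was met by Lcn2 alone and by 4.52% (721) of all tested genes. The study applied it with DESeq2, which when run here gave 944 genes, again with 1 of the 10. CPM, the counts divided by TMM-scaled library sizes, did not overlap between genotypes in any of the 10: 8 were higher in every S100a16KO+/- library (19.2% of all tested genes were) and 2 were lower (18.6% were). The median log2 fold change was 0.79 over the 10 genes and 0.01 over all tested genes. As a set the genes made up 0.102% to 0.105% of the counts in WT libraries and 0.131% to 0.134% in S100a16KO+/- libraries.

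**Figure D1:**
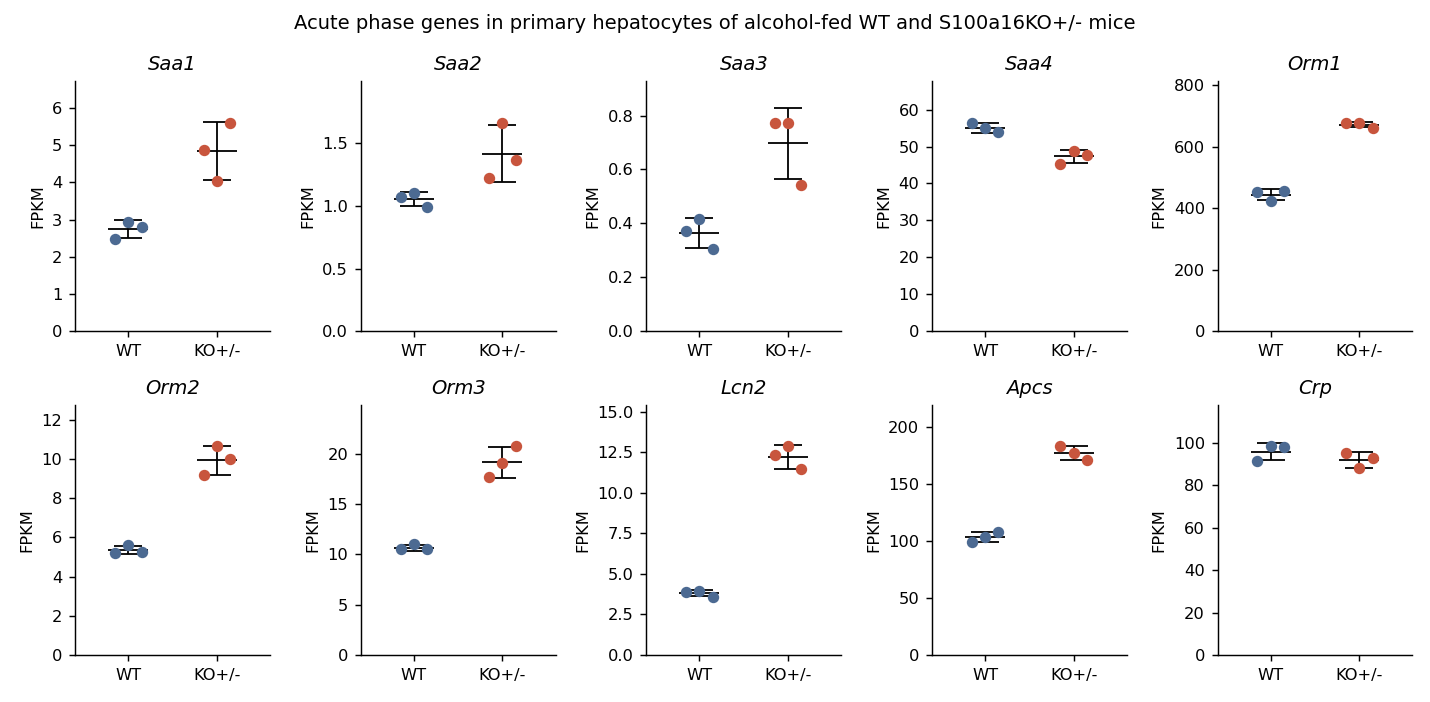
FPKM of each of the 10 genes in each library (points), with the mean and SD of the 3 libraries per genotype (horizontal bars); every vertical axis starts at 0 and has its own scale. WT and S100a16KO+/- points are separate for 9 genes, and those of Crp overlap on this scale. The share of all tested genes that separate in FPKM was not computed. In CPM, 19.2% of them were higher and 18.6% lower in every S100a16KO+/- library.

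Saa1 and Saa2 encode the serum amyloid A proteins that hepatocytes release in the acute phase. Saa1 (ENSMUSG00000074115, chr7:46740497-46742980, minus strand) had 495, 558 and 524 counts in WT and 914, 763 and 1075 counts in S100a16KO+/- hepatocytes. Its lowest S100a16KO+/- library was above its highest WT library, and the S100a16KO+/- libraries were spread more widely. In CPM it rose from 7.61 ± 0.342 to 13.3 ± 1.53 (SD, n = 3 libraries each), which is 0.81 ± 0.11 (SE) on the log2 scale, with an edgeR adjusted p of 8.32e-05.

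Saa2 (ENSMUSG00000057465, chr7:46751790-46754313, plus strand) had 217, 213 and 189 counts in WT and 235, 319 and 267 counts in S100a16KO+/- hepatocytes. The groups did not overlap, but S100a16KO+/- replicate 1 lay close to the WT libraries. The log2 fold change was 0.43 (95% interval 0.04 to 0.81), with an edgeR unadjusted p of 0.0331 and an adjusted p of 0.111, so Saa2 was not called. Without S100a16KO+/- replicate 2, in which Saa2 was highest, the log2 fold change was 0.25.

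Because reads of such similar genes can be divided between them by the counting, their counts were also added. The sum of Saa1 and Saa2 was 712, 771 and 713 counts in WT and 1149, 1082 and 1342 counts in S100a16KO+/- hepatocytes. Its log2 fold change was 0.71 ± 0.09 (SE, edgeR adjusted p = 4.37e-05). Saa2 made up 27.9% ± 2.08 of the summed FPKM of both in WT and 23.0% ± 5.35 in S100a16KO+/- hepatocytes (SD, n = 3 each). The difference was -4.90 percentage points (exact permutation test, two-sided, p = 0.3, where the smallest p that 3 against 3 libraries can give is 0.1). Without S100a16KO+/- replicate 2 it was -7.99 percentage points. In S100a16KO+/- replicate 2 the share was 29.1%, within the WT range of 26.1% to 30.2%, and in the other S100a16KO+/- libraries it was 20.1% and 19.6%.

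Saa3 is known in the mouse for expression outside hepatocytes, in macrophages and fat cells among others. It was the lowest of the 10 genes (ENSMUSG00000040026, chr7:46711998-46715700, minus strand), with 79, 83 and 61 counts in WT and 153, 154 and 110 counts in S100a16KO+/- hepatocytes. These counts stand for some 15.3 to 38.5 fragments a library. The log2 fold change of 0.92 ± 0.26 (SE) passed the test (edgeR adjusted p = 0.0191). It no longer passed without WT replicate 3 (0.80, adjusted p = 0.0775), without S100a16KO+/- replicate 1 (0.86, adjusted p = 0.0727) or without S100a16KO+/- replicate 2 (0.79, adjusted p = 0.0777).

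Saa4 encodes the constitutive serum amyloid A, which is present on lipoprotein without inflammation. It moved in the other direction from its neighbours on chromosome 7 (ENSMUSG00000040017, chr7:46727998-46732603, minus strand). It had 9517, 8771 and 8499 counts in WT and 7210, 7752 and 7726 counts in S100a16KO+/- hepatocytes. Every S100a16KO+/- library was below every WT library, though by a narrow margin. Saa4 fell to 85.5% of WT (log2 fold change -0.23 ± 0.07, SE, edgeR adjusted p = 0.0261). The call was lost without WT replicate 1 (-0.17, adjusted p = 0.111), without S100a16KO+/- replicate 1 (-0.19, adjusted p = 0.118) and without S100a16KO+/- replicate 3 (-0.20, adjusted p = 0.103). Saa4 had 18.6 to 22.8 times the FPKM of Saa1 in WT libraries and 8.52 to 12.05 times in S100a16KO+/- libraries. Per length of the coding transcript, which is shorter than the length behind the FPKM for Saa1, the ratio was 4.57 to 5.59 in WT and 2.09 to 2.95 in S100a16KO+/- libraries.

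The 3 orosomucoid genes rose together. Orm1 (ENSMUSG00000039196, chr4:63344560-63348163, plus strand) had 28271, 25004 and 26573 counts in WT and 39738, 39871 and 39615 counts in S100a16KO+/- hepatocytes. The unscaled counts of the S100a16KO+/- libraries were nearly equal. In CPM these libraries ran from 550.0 to 620.4, well above the 355.2 to 414.0 of WT. The log2 fold change was 0.59 ± 0.06 (SE), with an edgeR adjusted p of 8.22e-06. Orm1 ranked 84th by FPKM among the 15957 tested genes, and it supplied 60.0% to 62.6% of the summed FPKM of the 10 genes in WT and 64.6% to 65.1% in S100a16KO+/- hepatocytes.

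Orm2 (ENSMUSG00000061540, chr4:63362449-63365878, plus strand) was expressed far below Orm1, with 326, 333 and 308 counts in WT and 540, 627 and 599 counts in S100a16KO+/- hepatocytes. It rose to 1.85 times the WT level (log2 fold change 0.88 ± 0.13, SE, edgeR adjusted p = 0.000159). Orm3 lies between Orm1 and Orm2 (ENSMUSG00000028359, chr4:63356162-63359511, plus strand). It had 654, 651 and 612 counts in WT and 1036, 1119 and 1239 counts in S100a16KO+/- hepatocytes, a log2 fold change of 0.84 ± 0.10 (SE, edgeR adjusted p = 1.77e-05). Neither gene overlapped between genotypes in any library. Summed over the 3 genes the log2 fold change was 0.60 ± 0.06 (SE, edgeR adjusted p = 6.11e-06), close to that of Orm1, which supplies most of the sum.

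Orm2 made up 1.17% ± 0.0940 of the summed orosomucoid FPKM in WT and 1.42% ± 0.102 in S100a16KO+/- hepatocytes (SD, n = 3 each). The share of Orm3 was 2.33% ± 0.158 and 2.73% ± 0.245 (SD, n = 3 each). Each share had a p of 0.1 in the exact permutation test (two-sided), the smallest that this test can give with 3 against 3 libraries. Neither share overlapped between genotypes, at 1.114% to 1.279% against 1.305% to 1.504% for Orm2 and, by a narrow margin, 2.23% to 2.509% against 2.512% to 3.00% for Orm3.

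Lcn2 encodes lipocalin 2, which is also stored in the granules of neutrophils. It changed the most of the 10 genes (ENSMUSG00000026822, chr2:32384633-32387797, minus strand). It had 828, 791 and 711 counts in WT and 2455, 2562 and 2323 counts in S100a16KO+/- hepatocytes. The groups were far apart, with little spread within either. In CPM it rose from 11.3 ± 0.868 to 35.8 ± 3.82 (SD, n = 3 each), or by 1.67 on the log2 scale (95% interval 1.47 to 1.87, edgeR adjusted p = 1.17e-08). This log2 fold change was above that of 98.7% of all tested genes, and it lay between 1.46 and 1.74 under every alternative run.

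The pentraxins Apcs and Crp are neighbours on chromosome 1 and gave different results. Apcs, serum amyloid P component (ENSMUSG00000026542, chr1:172893961-172895041, minus strand), had 7775, 7677 and 7883 counts in WT and 13489, 13077 and 12827 counts in S100a16KO+/- hepatocytes. The replicates were close together and the genotypes far apart. It rose to 1.70 times the WT level (log2 fold change 0.77 ± 0.06, SE, edgeR adjusted p = 3.06e-07).

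Crp (ENSMUSG00000037942, chr1:172698055-172833031, plus strand, in a span that holds the pseudogene Gm38051) had 25356, 25842 and 25404 counts in WT and 24927, 22982 and 24670 counts in S100a16KO+/- hepatocytes. The CPM values were slightly lower in each S100a16KO+/- library, at 353.3 ± 9.38 against 369.9 ± 2.37 (SD, n = 3 each), while the FPKM values of the genotypes overlapped. Its log2 fold change of -0.07 (95% interval -0.17 to 0.03, edgeR adjusted p = 0.36) did not pass the test, and the interval leaves room for a level between 0.891 and 1.02 times that of WT. The FPKM of Apcs was 1.05 to 1.10 times that of Crp in WT libraries and 1.84 to 2.02 times in S100a16KO+/- libraries. Per length of the coding transcript it was 0.519 to 0.542 times in WT and 0.908 to 0.993 times in S100a16KO+/- libraries.

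**Figure D2:**
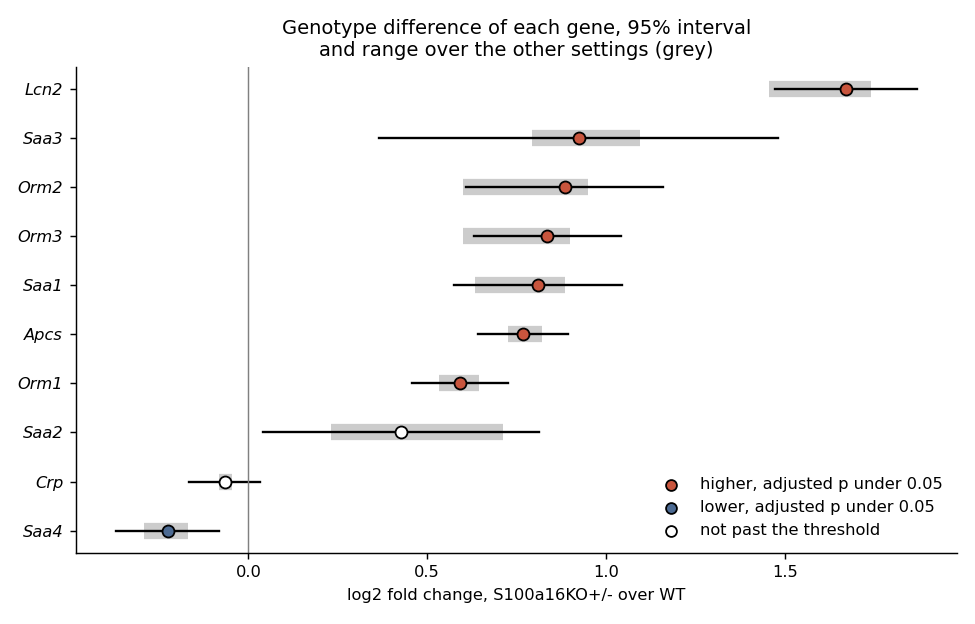
Log2 fold change (S100a16KO+/- over WT) of each gene on the horizontal axis, with its 95% interval (line), colour for the call at an adjusted p under 0.05, and the range over the alternative settings, including summed paralogs (grey). Lcn2 stands at 1.67, 6 further called genes lie between 0.59 and 0.92, and Saa4 lies at -0.23.

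In FPKM, the genes spanned 3 orders of magnitude and kept almost the same order in both genotypes. By FPKM in WT the order was Orm1, Apcs, Crp, Saa4, Orm3, Orm2, Lcn2, Saa1, Saa2 and Saa3, from 423.0 or more for Orm1 to 0.417 or less for Saa3. Neighbours in this order did not overlap in any library. The narrowest gap was between Apcs, lowest at 99.4, and Crp, highest at 98.4. In S100a16KO+/- hepatocytes the order differed only in that Lcn2 (11.4 or more) stood above Orm2 (10.7 or less).

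The order and the span depend on the length used. Per kilobase of the coding transcript, the WT means ran from 495.4 for Orm1 to 1.93 for Saa3. For these values the length followed the union of all annotated exons of a gene, which for Saa1 was 2478 bases against 609 bases of its coding transcript, a ratio of 4.07. The ratio was 4.70 for Saa3, 3.86 for Saa2, 2.87 for Lcn2 and 2.03 for Crp, and 1 for the other 5 genes. Counts scaled to the library total and to kilobases of the coding transcript put Crp (217.5 ± 8.01, SD, n = 3) above Apcs (115.7 ± 4.24) in WT. On the same scale Crp (209.1 ± 8.66) and Apcs (198.2 ± 7.17) were closer in S100a16KO+/- hepatocytes. Lcn2 rose on that scale from 12.2 ± 0.654, among Saa1 (12.5 ± 1.06) and Orm3 (11.9 ± 0.328), to 39.2 ± 2.34, above Saa1 (22.04 ± 3.51) and Orm3 (21.4 ± 1.68). The genotype differences do not depend on this choice, since a gene has the same length in every library.

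**Figure D3:**
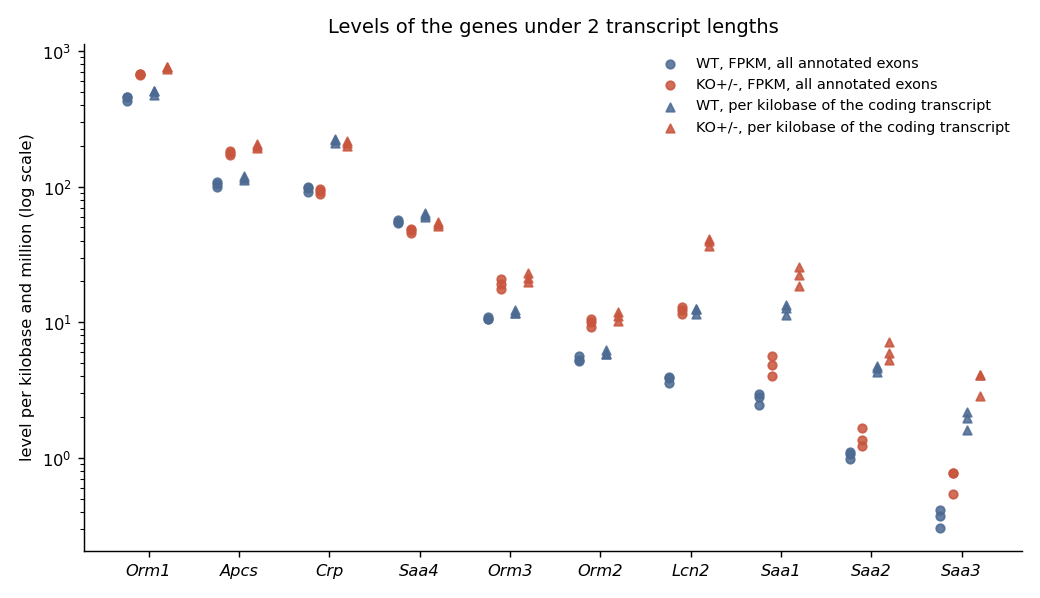
Level of each gene in each library on a log axis, as FPKM (circles, length of all annotated exons) and as counts scaled to the library total and to kilobases of the coding transcript (triangles), for WT and S100a16KO+/-. Circles and triangles lie close for Orm1, Orm2, Orm3, Apcs and Saa4, and the triangles lie higher for Saa1, Saa2, Saa3, Lcn2 and Crp.

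The other positive acute phase proteins, a list of 33 genes of which 32 were tested, moved mostly in the same direction: 23 were higher, 3 were lower and 6 did not pass the test, with a median log2 fold change of 0.24. Hamp, which encodes the iron hormone hepcidin, rose most (log2 fold change 2.96 ± 0.17, SE, edgeR adjusted p = 0.000154). Cd14, a co-receptor for bacterial lipopolysaccharide, followed with 0.94 ± 0.23 (SE, adjusted p = 0.00821, same test). The metalloreductase gene Steap4 fell by 0.68 on the log2 scale (edgeR adjusted p = 8.00e-06), and the 2 others that were lower were Mt2, a metallothionein gene, and Mbl1, a mannose-binding lectin gene, which were named here after their values were seen. The serum amyloids, orosomucoids, Lcn2 and Apcs that were called higher lay between 0.59 and 1.67 on the same log2 scale.

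The IL-6 and JAK-STAT list had 20 tested genes, of which 9 were higher, 3 lower and 8 not called (median log2 fold change 0.20). Il6 itself had at most 4 counts in WT libraries and at most 29 in S100a16KO+/- libraries and was not tested. Il6ra, the ligand-binding receptor chain, gave -0.11 ± 0.06 (SE, edgeR adjusted p = 0.272). Il6st, which encodes gp130, rose by 0.56 ± 0.05 on the log2 scale (SE, edgeR adjusted p = 2.85e-06).

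Stat3 rose slightly, by 0.22 ± 0.07 on the log2 scale (SE, edgeR adjusted p = 0.0392). Socs3, a STAT3 target that feeds back on gp130, rose by 1.43 ± 0.11 on the log2 scale (SE, edgeR adjusted p = 3.03e-07), and Socs2, a feedback inhibitor of growth hormone signalling, by 1.67 ± 0.07 (SE, adjusted p = 7.77e-10, same test). Bcl3, a nuclear partner of NF-kB subunits, went down, with a log2 fold change of -1.54 ± 0.12 (SE, edgeR adjusted p = 4.93e-07).

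The IL-1, TNF and NF-kB list had 5 of 27 tested genes higher, 3 lower and 19 not called (median log2 fold change 0.06). Irak3, an inhibitor of IL-1 receptor signalling, had a log2 fold change of 1.19 ± 0.39 (SE, edgeR adjusted p = 0.0397) at 24 to 26 counts in WT and 51 to 62 counts in S100a16KO+/- libraries. The cytokine gene Il1b rose by 0.91 ± 0.20 on the log2 scale (SE, edgeR adjusted p = 0.00422). This was the opposite direction to the lower Il1b mRNA that the study reported. That result came from liver tissue and RT-qPCR, not isolated hepatocytes, and the reason for the difference was not tested. Tnf, named after its values were seen, had 4 to 12 counts in WT and 0 to 16 in S100a16KO+/- libraries. It was not called (edgeR adjusted p = 0.839). Ikbkg, the regulatory subunit of the IkB kinase, fell by 0.70 on the log2 scale (edgeR adjusted p = 1.02e-05). Nfkbia, an NF-kB target that encodes its inhibitor, gave 0.06 ± 0.08 (SE, edgeR adjusted p = 0.693).

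Among 19 transcription factors that act on acute phase or liver genes, 4 were higher, 11 lower and 4 not called, with a median log2 fold change of -0.31. The C/EBP genes differed in direction. Cebpd rose by 0.86 ± 0.13 (SE, edgeR adjusted p = 0.000169) and Cebpb by 0.49 ± 0.09 (SE, adjusted p = 0.00166, same test), both on the log2 scale. Cebpa and Cebpg, named after their values were seen, were lower, at -0.70 ± 0.05 and -0.43 ± 0.07 (SE, edgeR adjusted p = 1.13e-07 and 0.000557). Nr3c1, the glucocorticoid receptor, had a log2 fold change of -0.46 ± 0.06 (SE, edgeR adjusted p = 6.39e-05). Nr0b2, a corepressor of bile acid synthesis, fell by 0.94 and Foxa2, a liver pioneer factor, by 0.88 on the log2 scale (edgeR adjusted p = 9.90e-08 and 6.39e-05).

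Receptors and binding partners of these proteins formed a list of 21 genes, of which 18 were tested, 5 were higher, 1 was lower and 12 were not called (median log2 fold change -0.01). The gene that was lower, named after its values were seen, was Abca1, a cholesterol exporter (-0.34 ± 0.05, SE). Scarb1, the high-density lipoprotein receptor that also binds serum amyloid A, rose by 0.78 ± 0.06 on the log2 scale (SE, edgeR adjusted p = 4.18e-07). P2rx7, an ATP receptor, rose by 1.10 ± 0.21 (SE, adjusted p = 0.00142, same test). Fcgr2b, an inhibitory Fc receptor of sinusoidal endothelium, rose by 0.73 ± 0.07 (SE, adjusted p = 3.37e-06, same test).

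**Figure D4:**
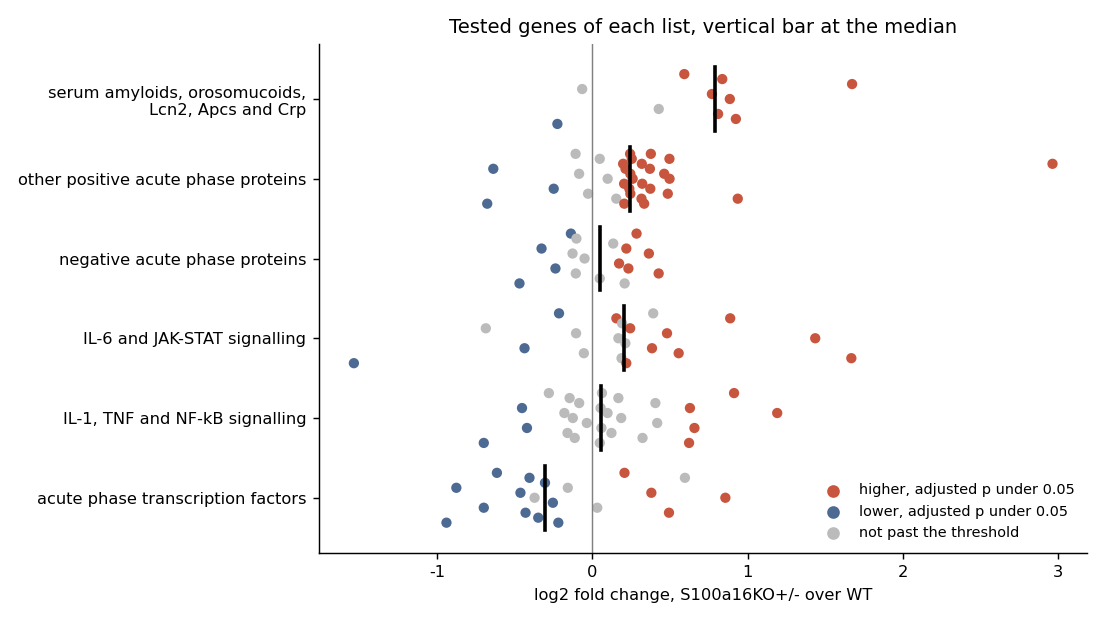
Log2 fold change (S100a16KO+/- over WT) of each tested gene (points) of the serum amyloid and orosomucoid set and of 5 related lists, coloured by the call at an adjusted p under 0.05, with the median of each list as a vertical bar. The median is 0.79 for the 10 genes, 0.24 for other positive acute phase proteins, 0.05 for negative ones and -0.31 for the transcription factors.

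Markers of other cells were measured because Lcn2 and Saa3 are also made outside hepatocytes. The 14 hepatocyte markers summed to between 126092 and 138071 CPM in WT and 125339 and 137185 CPM in S100a16KO+/- libraries, which is the labelled cell type. Of these, 2 were higher, 3 lower and 9 not called, with Pck1, a gluconeogenesis enzyme, highest (log2 fold change 1.36) and Cyp3a11 lowest (-0.37).

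Of 15 neutrophil markers 8 were tested, and 1, Il1b, was higher, with 7 not called and a median log2 fold change of 0.65. Their summed level was 6.81 to 9.26 CPM in WT and 11.7 to 13.0 CPM in S100a16KO+/- libraries. Of the defining granule and surface genes, Ly6g had at most 3 counts in any library, Camp at most 7, Ltf and Ngp at most 9 and Elane at most 14. Camp, Ltf and Elane had counts in WT libraries only. The granule gene Prtn3 had at most 9 counts in WT and 18 to 43 counts in S100a16KO+/- libraries (edgeR adjusted p = 0.0518). S100a8 (log2 fold change 0.83, edgeR adjusted p = 0.151) and Mmp9 (0.64, adjusted p = 0.134, same test) were higher in S100a16KO+/- libraries. Neither overlapped between genotypes in CPM, where 19.2% of all tested genes were higher without overlap, and neither was called. For S100a8 the highest WT count and the lowest S100a16KO+/- count were both 50. Csf3r gave 0.66 (edgeR adjusted p = 0.0639) with overlap. S100a9 (0.27), Retnlg (0.59) and Cxcr2 (0.50) also overlapped and were not called. Of 6 fat cell markers 1 was tested, Fabp4, which had 157 to 278 counts in WT and 245 to 381 in S100a16KO+/- libraries (log2 fold change 0.59, edgeR adjusted p = 0.0992). Adipoq, which defines fat cells, had at most 6 counts in any library.

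Of 15 macrophage and Kupffer cell markers, 5 were higher, none was lower and 10 were not called. Their sum was 213.1 to 246.5 CPM in WT and 265.5 to 283.8 CPM in S100a16KO+/- libraries. Marco, a scavenger receptor, rose by 0.74 ± 0.14 on the log2 scale (SE, edgeR adjusted p = 0.00118), while Clec4f, which defines Kupffer cells, gave 0.04 ± 0.08. Of the 10 markers of sinusoidal endothelium, 9 were higher and Lyve1, named after its values were seen, was lower. Their sum went from 287.0 to 300.2 CPM in WT to between 420.0 and 436.3 CPM in S100a16KO+/- libraries.

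Of 10 stellate cell and fibroblast markers 4 were higher and 6 not called, with sums of 42.0 to 45.1 CPM in WT and 74.6 to 80.0 CPM in S100a16KO+/- libraries. All 5 tested erythroid markers were lower, with sums of 214.8 to 252.2 CPM in WT and 23.4 to 26.3 CPM in S100a16KO+/- libraries. Of 5 tested bile duct markers, Sox9 was lower and 4 were not called. The part of these other cells in the results for the serum amyloids, Lcn2 and the rest was not tested.

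**Figure D5:**
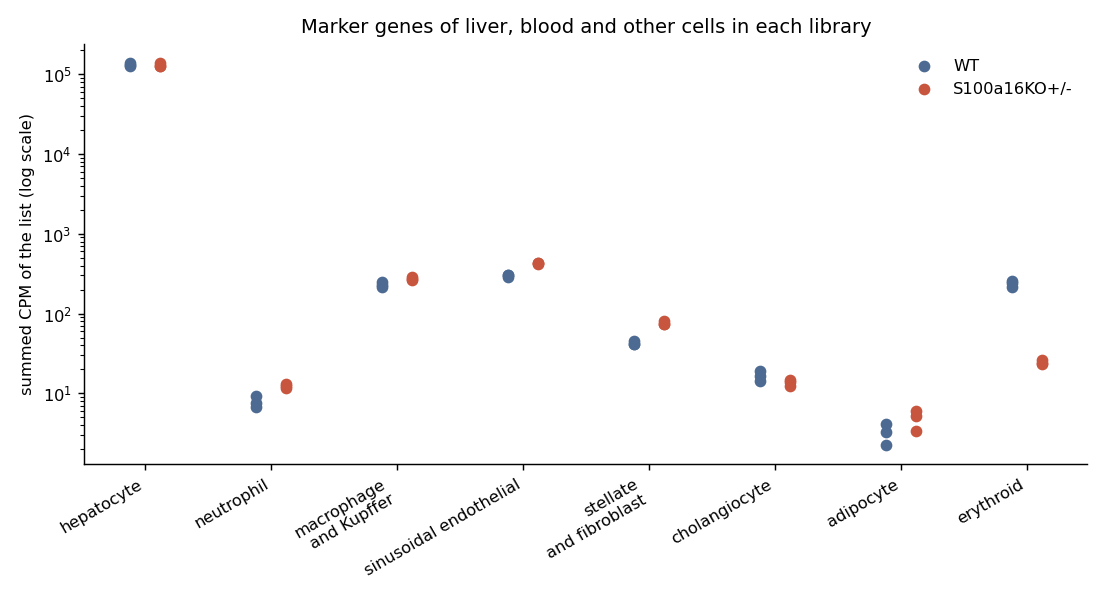
Summed CPM (log axis) of the marker list of each of 8 cell types in each library, for WT and S100a16KO+/-. Hepatocyte markers lie at 125339 CPM or higher in every library, sinusoidal endothelial and stellate sums are higher in S100a16KO+/- libraries, and erythroid sums fall from at least 214.8 to at most 26.3 CPM.

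The genes whose pattern over the 6 libraries was most like the mean of Saa1 and Saa2 were Slc25a22 and Kat6b (Pearson's r = 0.998 each), Dnase1l3 (0.997), Adam23 (0.996) and Ikbke (0.995), on log2(CPM + 1). Slc25a22 encodes a mitochondrial glutamate carrier, Kat6b a histone acetyltransferase, Dnase1l3 a secreted DNase, Adam23 a membrane protein of the ADAM family and Ikbke an NF-kB and interferon pathway kinase. Among the 9201 genes whose mean reached 4 CPM, 1060 had an r over 0.9. All 6 points share the genotype difference, and r is a description only.

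With WT replicate 1 and S100a16KO+/- replicate 2 both left out, 7 of the 10 genes were called, 6 higher and Saa4 lower. The log2 fold change was then 1.64 for Lcn2, 0.85 for Saa1, 0.59 for Orm1 and 0.73 for Apcs, against 1.67, 0.81, 0.59 and 0.77 with all libraries. Saa3 was the gene whose call was lost (0.85, edgeR adjusted p = 0.0917).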

How the data were processed

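Primary hepatocytes were isolated by collagenase perfusion and Percoll separation, and poly(A) RNA was sequenced as strand-specific paired reads with molecular identifiers. The authors deposited 1 table with an estimated count per gene and library, not scaled for library size, and an FPKM value scaled by the authors for length and library size. The submitters' processing notes name cutadapt 1.9, HISAT2 2.0.4, UMI-tools, StringTie 1.3.4d, DESeq2, edgeR and the build mm10; the annotation is not given in the sources used here. Positions are those of the table, and 89.7% of the gene identifiers found in GENCODE M21 have the same start and end there.

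The estimated counts, which are whole, were tested with edgeR 4.0.16 in R 4.3.3 (TMM, filterByExpr, robust quasi-likelihood fit, two-sided, no covariate), with Benjamini-Hochberg adjustment over 15957 genes. The groups were the genotypes in the labels; no batch or date is named. CPM values are TMM-scaled. DESeq2 1.42.0 and limma 3.58.1 (voom, or trend on log2(FPKM + 1) and log2(FPKM + 0.1)) were alternatives, as were other scalings, filters, division by 4, summed paralogs, a replicate block and leaving out libraries. The fits were tested on simulated data. Shares of paralogs were compared by exact permutation tests over libraries.

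The 10 genes and the lists were chosen with earlier results of these data known. Named in the text are all 10, at most the 3 called genes with the largest change in each other list, 8 signalling genes and transcription factors whatever their values, and the 5 genes most like Saa1 and Saa2. Further genes, among them Il6 and defining or uncalled markers of other cells, were named after their values were seen. Columns of the authors' own annotation terms were not used. The lymphocyte marker list is not reported here.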

Additional observations from a re-analysis of the deposited data

How the results depend on the processing

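Over the alternatives, 172 values of the 10 log2 fold changes were computed. None changed direction, 163 stayed on the same side of the threshold, 8 no longer passed it and 1 newly passed it; Saa1, Orm1, Orm2, Orm3, Lcn2, Apcs and Crp stayed on their side throughout. The number of genes called higher stayed between 6 and 7. The number called lower was 1, and 0 with the replicate block, where Saa4 gave -0.23 with an adjusted p of 0.0567 in edgeR. Leaving out each library in turn, it ranged from 0 to 1, and the number past the criterion of the study ranged from 1 to 2 (Lcn2, and Saa3 without S100a16KO+/- replicate 3). The labels do not say whether replicate numbers pair the libraries. The correlations of same-numbered libraries' deviations were -0.047, -0.024 and 0.052, and those of differently numbered libraries ranged from -0.068 to 0.084. With 3 libraries a group these values cannot decide whether there was pairing. The replicate block changed no other call among the 10. Saa2 passed the test only as a sum with Saa1, and summing gives no count of genes called because there are then fewer features. Saa3 is not part of settings that ask for a mean FPKM of at least 1. Over all genes, calls at an adjusted p under 0.05 ranged from 2208 to 3860, against 3643, and those past the criterion from 131 (limma on log2(FPKM + 1)) to 979 (no filter), against 721. Leaving out both libraries that stand apart was added after the data were seen. Depth limits Saa3 most.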

Other observations

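Negative acute phase proteins are plasma proteins whose output drops during inflammation. The genes listed as such here did not move in a single direction. Whether each of them responds in this way in the mouse was not tested. Of 17 tested, 6 were higher, 4 were lower and 7 did not pass the test in edgeR, with a median log2 fold change of 0.05. Serpina6, which encodes the corticosteroid-binding globulin, was lower (log2 fold change -0.47 ± 0.06, SE, edgeR adjusted p = 7.91e-05). Fetub, a fetuin gene, was higher (0.43 ± 0.07, SE, adjusted p = 0.000549, same test), as was Kng1, the kininogen gene (0.36 ± 0.04, SE, adjusted p = 2.48e-05, same test).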
